A study of Mus musculus with 9 samples.

Results

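Immediate early transcription factors are genes that cells switch on within minutes of a signal, before any new protein is made. The 10 genes described here are Fos, Fosb, Jun, Junb, Atf3, Egr1, Egr2, Egr3, Nr4a1 and Ier2. They were taken by gene symbol from the 19505 genes named on the arrays, with the brightest probe set kept for each gene. All 10 were measured, and all 10 passed the filter on dim probe sets, as did 10042 genes in all. Each also passed that filter on the arrays numbered 2 and 3 alone, where most of these genes were lower.

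Growth factors such as macrophage colony-stimulating factor (M-CSF), attachment, shear and stress all act on these genes. ERK and other mitogen-activated protein kinases (MAPK) phosphorylate factors that already sit at the promoters, among them serum response factor (SRF) with its partners and the CREB family. Fos and Jun proteins pair through leucine zippers and form AP-1. EGR proteins bind GC-rich DNA through zinc fingers, and the messages of the whole class decay quickly. In macrophages Egr2 is known as a gene that interleukin 4 (IL-4) raises and that helps to keep the alternatively activated state.

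The cells were macrophages grown from the bone marrow of wild-type C57BL/6 mice for 7 days in medium with serum and M-CSF, given as 10 ng/ml in one protocol text and 20 ng/ml in another. All groups then received IL-4 at 20 ng/ml, and cells were harvested after 24 h. The 3 groups were vehicle, lipocalin 2 (LCN2, a secreted protein that binds siderophores and so withholds iron) given on day 7, with no dose in the labels, and recombinant mouse LCN2 at 150 ng/ml from day 0. Each group had 3 arrays, whose titles carry the numbers 1, 2 and 3. The labels do not say whether these came from separate mice or cultures, or what the number stands for, so each p-value rests on a spread between arrays that may be wholly technical.

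Array medians lay between 5.60 and 5.69 on the log2 scale. For the labelled identity, 7 of 7 measured macrophage markers and 4 of 4 IL-4 activation markers passed the dim filter, while 0 of 3 T cell, 0 of 3 B cell and 0 of 2 natural killer cell markers did. Markers of other marrow cells passed too, with 3 of 3 for monocytes, 6 of 7 for neutrophils (Ngp at a mean of 10.01), 2 of 5 for dendritic cells, 2 of 5 for stroma and 1 of 3 for mast cells. In every group the array numbered 1 stood apart, and the first principal component, with 62.5% of the variance, separated the 3 arrays numbered 1 from the other 6. For the member that differed most in each comparison of groups, the values within the title numbers are therefore given as well.

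For 7 of the 10 genes the RefSeq table of GRCm38.p6 gave at least 1 window of 250 bases before the annotated start. These 4 are shown because the first 3 belong to genes that were high on the arrays numbered 1 and the last to a gene that did not pass there. Capitals mark matches, on either strand, to TGACG (the core of the cyclic AMP response element, CGTCA on the other strand), to the CArG box of SRF, to GCGGGGGCG (an EGR site) and to TATAAA. The windows are Fos at chr12:85473640-85473889 (plus strand), Fosb at chr7:19310046-19310295 (minus strand), the third of 5 listed for Egr2 at chr10:67537619-67537868 (plus strand) and Atf3 at chr1:191183334-191183583 (minus strand), each written 5′ to 3′.
Fos: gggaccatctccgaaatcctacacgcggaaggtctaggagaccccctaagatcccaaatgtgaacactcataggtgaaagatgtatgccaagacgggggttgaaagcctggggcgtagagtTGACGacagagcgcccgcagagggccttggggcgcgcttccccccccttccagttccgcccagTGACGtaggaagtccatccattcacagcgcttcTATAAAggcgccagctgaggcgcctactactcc
Fosb: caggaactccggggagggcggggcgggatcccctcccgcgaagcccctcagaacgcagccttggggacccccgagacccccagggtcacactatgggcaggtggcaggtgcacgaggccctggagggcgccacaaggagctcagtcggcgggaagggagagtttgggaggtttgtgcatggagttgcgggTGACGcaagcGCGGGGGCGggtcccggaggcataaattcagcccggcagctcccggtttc
Egr2: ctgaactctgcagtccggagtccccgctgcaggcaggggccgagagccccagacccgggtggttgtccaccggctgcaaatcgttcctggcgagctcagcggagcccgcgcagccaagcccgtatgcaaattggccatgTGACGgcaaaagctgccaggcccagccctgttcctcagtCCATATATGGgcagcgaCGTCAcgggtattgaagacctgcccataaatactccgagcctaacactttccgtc
Atf3: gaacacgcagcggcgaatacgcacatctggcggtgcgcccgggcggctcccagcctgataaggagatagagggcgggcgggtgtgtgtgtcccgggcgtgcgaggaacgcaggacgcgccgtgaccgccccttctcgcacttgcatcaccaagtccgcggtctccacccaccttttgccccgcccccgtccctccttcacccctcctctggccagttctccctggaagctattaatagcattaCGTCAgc
TGACG lay in the windows of 6 of these 7 genes (Atf3, Egr2, Fos, Fosb, Junb and Nr4a1), and in those of 19.8% of all 27025 genes with a window of the same length. The CArG box lay in a window of Egr2 only, against 1.62% of all genes. GCGGGGGCG lay in those of Fosb and Nr4a1, against 2.93%, and TATAAA in that of Fos, against 14.3%. TGANTCA, the AP-1 site, and TGACGTCA, the full cyclic AMP element that contains TGACG, lay in 0 of the 7, against 7.82% and 1.77%. A match describes the letters and is not a measured binding site, and no match says only that the letters are not in this window.

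On the arrays numbered 1, 8 of the 10 genes were higher than on the arrays numbered 2 and 3 (limma, adjusted p under 0.05 over all 10042 genes), where 11.0% of all genes were called higher and 22.1% lower. Against the arrays numbered 2 alone the count was also 8, with 7.64% of all genes higher, and against those numbered 3 alone 8 again, with 9.08%. The 8 were Egr1, Fos, Fosb, Ier2, Nr4a1, Egr2, Junb and Jun. The same 8 did not overlap: all 3 arrays numbered 1 lay above all 6 others, which held for 11.8% of all genes, with 23.6% wholly below. The median difference over the 10 was 0.91 (log2), against -0.06 over all genes tested. The difference is the mean of the 3 arrays numbered 1 minus the mean of the 6 others, with the group in the fit, and each error given with it is the standard error of that fit.

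**Figure D1:**
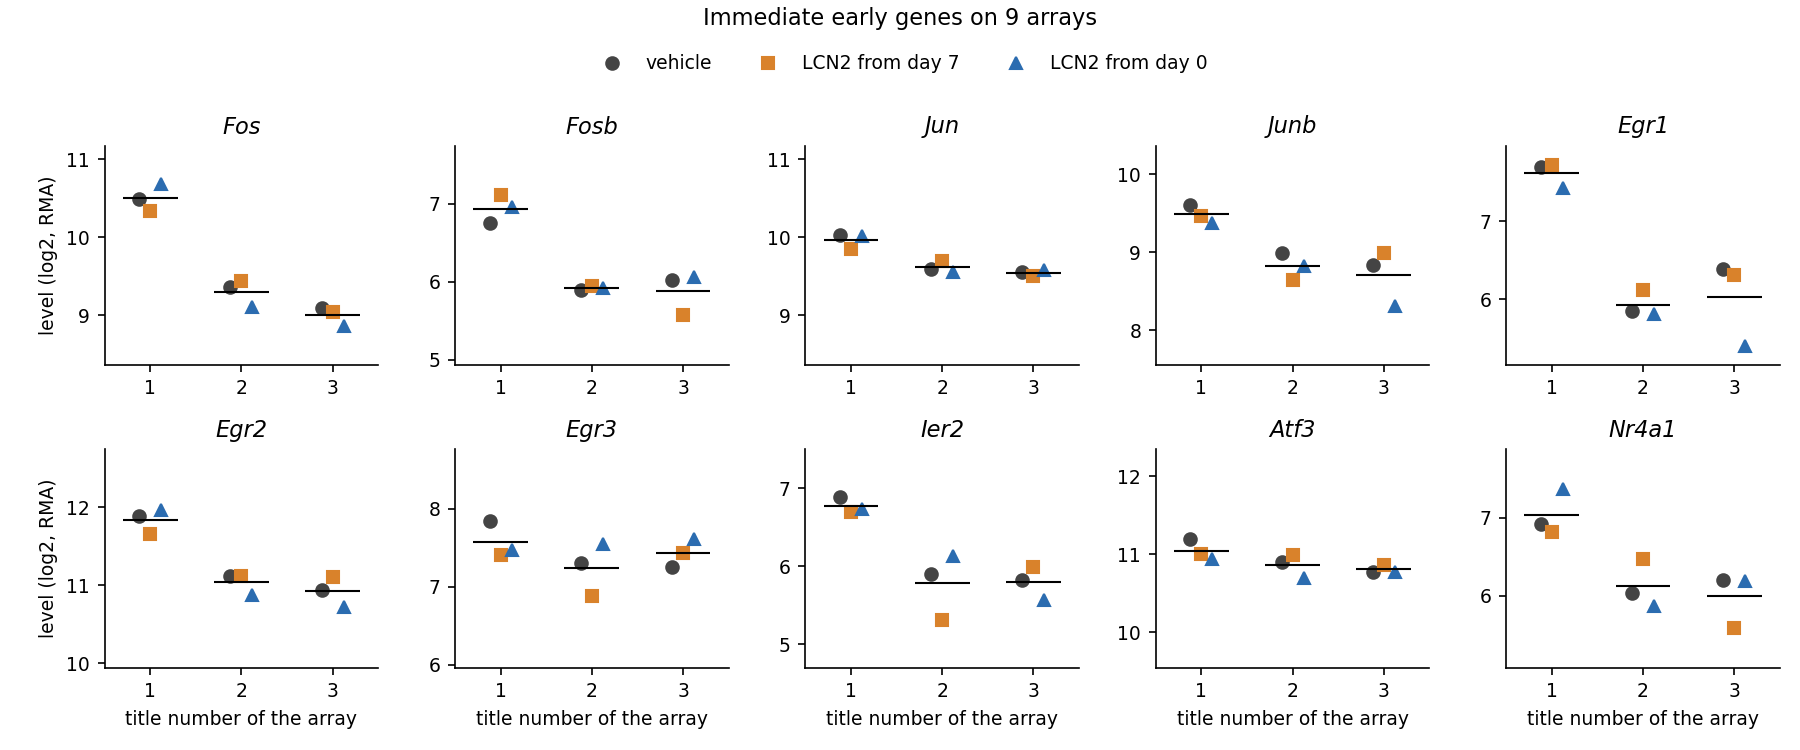
Log2 levels of the 10 genes (vertical axes, each spanning the same width) on the 9 arrays, by the number in the array title (horizontal axes). Symbols give the group and black lines the mean of the 3 arrays of a number. For 8 genes all 3 arrays numbered 1 lie above all 6 others. For Atf3 they overlap once the groups are pooled, and for Egr3 the array numbered 1 is not the highest in either LCN2 group.

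Among the AP-1 genes Fos (GRCm38.p6 chr12:85473890-85477274) differed most; its protein cannot pair with itself and needs a Jun protein. Fos was at 10.49 with vehicle, 10.34 with LCN2 from day 7 and 10.68 with LCN2 from day 0 on the arrays numbered 1. On the arrays numbered 2 it was at 9.37, 9.45 and 9.10 in the same order, and on those numbered 3 at 9.10, 9.04 and 8.86. All 3 arrays numbered 1 were high, and in each group the array numbered 3 was below the array numbered 2. The difference was 1.35 ± 0.12 (SE, 3 against 6 arrays, limma adjusted p = 0.000215), a 2.55-fold higher level.

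Fosb (chr7:19302696-19310118), the close relative of Fos, was at 6.76, 7.11 and 6.95 on the arrays numbered 1 (vehicle, LCN2 from day 7, LCN2 from day 0). The arrays numbered 2 held 5.90, 5.95 and 5.93, and those numbered 3 held 6.02, 5.57 and 6.06. The arrays numbered 1 were clear of the rest by more than the whole range of the 6 others, which was 0.48. The difference was 1.04 ± 0.13 (limma adjusted p = 0.000899).

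Junb (chr8:84976909-84978748), an AP-1 subunit that can counter Jun, was at 9.61, 9.47 and 9.38 on the arrays numbered 1. It was at 8.99, 8.64 and 8.83 on those numbered 2 and at 8.83, 8.99 and 8.32 on those numbered 3. The array numbered 3 with LCN2 from day 0 was the lowest of all. The difference was 0.72 ± 0.13 (limma adjusted p = 0.00448).

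Jun (chr4:95049036-95052222), a main partner of Fos, moved least of the 8. Its levels were 10.03, 9.85 and 10.02 on the arrays numbered 1, 9.60, 9.70 and 9.56 on those numbered 2, and 9.55, 9.51 and 9.58 on those numbered 3. The groups of numbers did not overlap, but the difference was small, 0.39 ± 0.08 (limma adjusted p = 0.00895). Without vehicle replicate 1 it was 0.35 (adjusted p = 0.0666) and without LCN2 day 0 replicate 1 also 0.35 (adjusted p = 0.0569), so either omission ended the call.

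Atf3 (chr1:191170296-191183333), a stress-induced member of the same zipper class that restrains inflammatory genes, did not pass. It was at 11.20, 11.00 and 10.93 on the arrays numbered 1, 10.89, 10.99 and 10.69 on those numbered 2, and 10.78, 10.86 and 10.77 on those numbered 3. The lowest array numbered 1 (10.93) lay below the highest of the others (10.99). The difference was 0.21 ± 0.09 (limma adjusted p = 0.0933). It passed at the same size with a mean-variance trend (adjusted p = 0.0200) and at 0.31 with the arrays shifted to a common median (adjusted p = 0.0386).

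Egr1, the zinc finger factor that serum and ERK raise, showed the largest difference of the 10. Its levels were 7.70, 7.72 and 7.42 on the arrays numbered 1, 5.84, 6.11 and 5.81 on those numbered 2, and 6.39, 6.31 and 5.40 on those numbered 3. The lowest array numbered 1 lay 1 log2 unit or more above every other. The difference was 1.64 ± 0.15 (limma adjusted p = 0.000231), or 3.11-fold with a 95% interval of 2.47- to 3.92-fold. Its difference was larger in size than that of 99.4% of all genes tested.

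Egr2 (chr10:67534469-67542188), the EGR factor tied to IL-4, was at 11.89, 11.66 and 11.96 on the arrays numbered 1. It was at 11.12, 11.12 and 10.87 on those numbered 2 and at 10.94, 11.10 and 10.72 on those numbered 3. The difference was 0.85 ± 0.11 (limma adjusted p = 0.00128), a 1.81-fold higher level with no overlap.

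Egr3 (chr14:70077317-70082613), the third EGR factor, has 3 probe sets, and the name of the one kept marks it as unmapped. On it Egr3 was at 7.84, 7.41 and 7.47 on the arrays numbered 1, 7.30, 6.88 and 7.55 on those numbered 2, and 7.25, 7.43 and 7.61 on those numbered 3. The numbers overlapped, and with LCN2 from day 0 the array numbered 1 was the lowest of its group. The difference was 0.23 ± 0.14 (limma adjusted p = 0.245). With every probe set tested, the other 2 gave 0.20 each (adjusted p = 0.403 and 0.352), so 0 of the 3 passed. The mean levels of the 3 over the 9 arrays were 7.41, 6.81 and 4.06. The probe set at 6.81 is named as unmapped too, and the last, which is not, was dim. Egr3 thus passed the dim filter on unmapped probe sets only.

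Nr4a1 (chr15:101253902-101274795), an orphan nuclear receptor also called Nur77 that patrolling monocytes need, was at 6.92, 6.82 and 7.37 on the arrays numbered 1. It was at 6.04, 6.48 and 5.87 on those numbered 2 and at 6.21, 5.59 and 6.19 on those numbered 3. The arrays numbered 1 were highest in each group, and the highest and lowest of the 6 others were both from LCN2 from day 7. The difference was 0.97 ± 0.20 (limma adjusted p = 0.00722), and without LCN2 day 0 replicate 1 it was 0.79 (adjusted p = 0.0554).

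Ier2 (chr8:84661331-84662852), a small nuclear protein induced with Fos, was at 6.89, 6.69 and 6.74 on the arrays numbered 1. It was at 5.90, 5.30 and 6.13 on those numbered 2 and at 5.82, 5.99 and 5.57 on those numbered 3. The arrays numbered 1 lay within 0.20 of each other and above all others. The difference was 0.99 ± 0.17 (limma adjusted p = 0.00371).

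The rise on the arrays numbered 1 was present in each group. Within vehicle the array numbered 1 exceeded the mean of the other 2 by 1.58 for Egr1, 1.26 for Fos and 0.86 for Egr2. With LCN2 from day 7 these values were 1.51, 1.10 and 0.55, and with LCN2 from day 0 they were 1.81, 1.70 and 1.16. A test of whether the rise differed between groups, added after seeing the data, called 0 of 10 members and 0% of all genes (limma F-test of the interaction, 496 of 10042 at an unadjusted p under 0.05). It had 3 residual degrees of freedom, and the member with the lowest unadjusted p was Egr2 (0.0598, adjusted p = 0.999). The array numbered 1 was the highest of its group in 3 of 3 groups for 9 genes, Atf3 included, and in 1 of 3 for Egr3. For Atf3 with LCN2 from day 7 this rested on 11.00 against 10.99. The share of all genes with this order was not counted.

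The number in the title took a median of 84.4% of the variance of a member over the 9 arrays, against 48.6% for all genes tested. The group took a median of 2.39%, against 10.6%. For Fos the number took 96.1% and the group 0.43%. Between the arrays numbered 2 and those numbered 3, 0 of the 10 genes and 0 of 10042 genes (0% called) passed in limma, with 310 at an unadjusted p under 0.05. Fos differed by 0.30 ± 0.13 in that comparison (limma adjusted p = 1.000) and was the 1 member whose arrays numbered 2 lay wholly above those numbered 3, against 3.52% of all genes. For Fos this rested on a near tie, 9.1013 (LCN2 from day 0, number 2) against 9.1001 (vehicle, number 3).

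**Figure D2:**
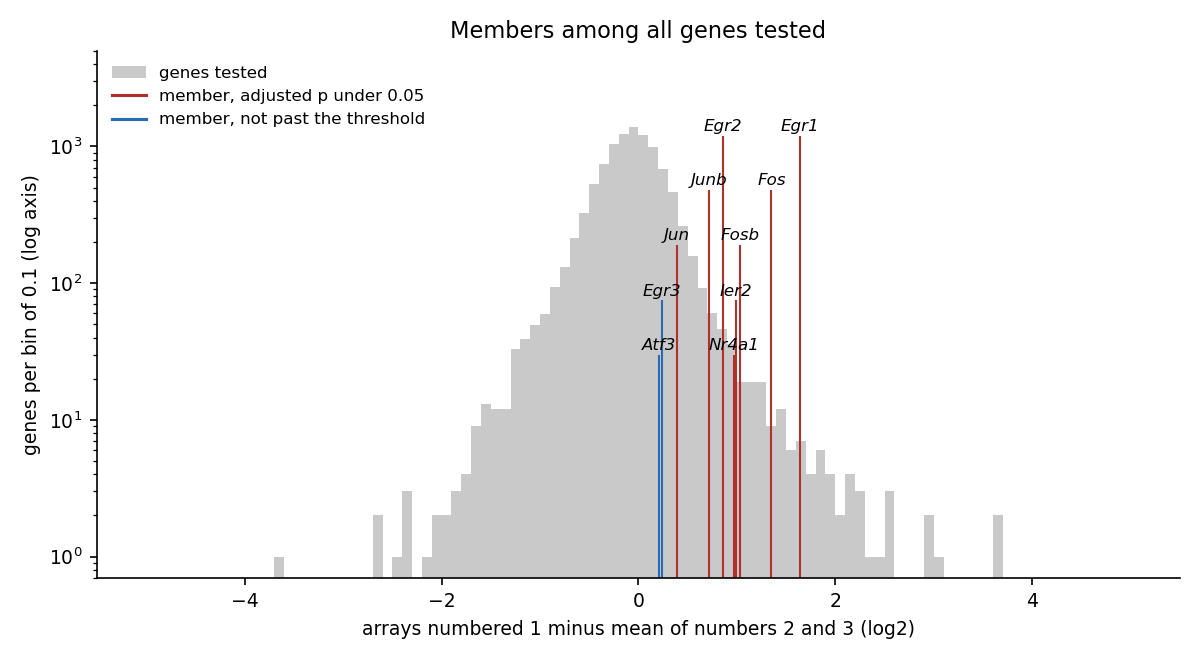
Differences of the 10042 genes tested between the arrays numbered 1 and the mean of those numbered 2 and 3 (horizontal axis, log2), counted in bins of 0.1 on a log axis. Lines mark the 10 immediate early genes, red where the adjusted p is under 0.05 (limma); their heights only separate the labels. All 10 lie to the right of 0, from 0.21 for Atf3 to 1.64 for Egr1.

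The 8 genes passed under either scaling of the arrays. The median over the genes tested was 7.84 on the arrays numbered 1 and 7.94 on the others. Over all probe sets the arrays numbered 1 were not the lower ones, with medians of 5.69, 5.66 and 5.68 against 5.60 to 5.69 on the others. Shifting all arrays to a common median of the genes tested raised every difference by title number by 0.10, and 9 of 10 members then passed. The direction of this shift depends on that choice of genes. That scaling also turned the balance of all calls, from 1109 higher and 2224 lower (33.3% of the calls higher) to 1746 higher and 1522 lower (53.4%). The members' median was then 1.01.

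Other genes of the response were read from lists. For each list the shares over all genes were 11.0% called higher and 22.1% lower, or 17.4% and 15.2% with a common median. Of the immediate early effectors, 13 of 18 tested genes rose on the arrays numbered 1 and 2 fell, with a median of 0.45 against -0.06 over all genes. Trib1, a pseudokinase, rose by 1.38 ± 0.15, the kinase gene Sgk1 by 1.35 ± 0.11 and the polo-like kinase gene Plk3 by 1.11 ± 0.14. The 2 that fell were the chemokine genes Ccl3 (-0.73) and Ccl4 (-0.72). Among those that rose, Ptgs2 and Phlda1 had means of 5.60 and 5.57 on the arrays numbered 2 and 3, below the dim threshold of 5.66. Their means on the arrays numbered 1 were 6.61 and 6.39. The dim filter used the mean over all arrays, so both genes were tested only because of their higher levels on the arrays numbered 1. Genes named beyond the 3 largest differences of a list were chosen after their values were seen.

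Of the genes that ERK and its relatives induce as their own brakes, 5 of 9 tested rose and 1 fell (median 0.37). Of all genes 11.0% rose and 22.1% fell. Dusp5, a phosphatase that acts on ERK in the nucleus, rose by 1.64 ± 0.16, Dusp1, which dephosphorylates p38 and JNK, by 1.03 ± 0.10, and Dusp10 by 0.51 ± 0.15. Dusp16 (0.37) and Dusp6 (0.43) were the other 2 that rose. Spred1, an inhibitor of the Ras pathway, fell by 0.43. The 4 listed genes Dusp2, Dusp8, Spry1 and Spry4 were dim and not tested.

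The further AP-1 and zipper genes were mixed, where 11.0% of all genes rose and 22.1% fell. Of 13 tested, 5 rose (Cebpb by 0.79, Jund by 0.66, Fosl2 by 0.61, Fosl1 by 0.38 and Batf2 by 0.32) and 1 fell, Maf (-0.95 ± 0.14), a factor of mature macrophages. Their median was 0.23. Among the EGR and NR4A relatives and corepressors Nr4a2 rose by 0.72 ± 0.19, and Nab1, a corepressor of EGR proteins, fell by 0.28 ± 0.09, a call lost with a common median. Egr4 (0.10) and Nab2 (0.02) did not pass.

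Other immediate early regulators split as well: 5 of 16 tested rose and 4 fell (median 0.11), or 6 and 2 with a common median. Of all genes 11.0% rose and 22.1% fell, or 17.4% and 15.2% with a common median. The part of these regulators that fell was thus near the share of all genes. Bcl3, a nuclear IκB protein, rose by 1.49 ± 0.21 and Btg2, which slows proliferation, by 0.86 ± 0.16. Myc (0.50), Btg1 (0.48) and Ier3 (0.28) were the other 3 that rose. Klf4 (-0.63 ± 0.11), Klf6 (-0.62), Klf2 (-0.38) and Id3 (-0.29) fell, and the calls of Klf2 and Id3 were lost with a common median.

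The genes that carry the signal to these promoters did not move as a group. Of 16 tested genes from the M-CSF receptor to SRF, 2 rose and 3 fell, where 11.0% and 22.1% of all genes did, with a median of -0.05. With a common median 4 rose, Sos1 and Elk3 being gained, 3 fell and the median was 0.05. Srf, itself a target of the pathway, rose by 0.61 ± 0.11 and Braf by 0.31. Mapk14, which encodes p38, fell by 0.54 ± 0.09, Mrtfa, an actin-regulated partner of SRF, by 0.42 ± 0.08, and Map2k1 by 0.35. Csf1r, the M-CSF receptor, differed by -0.000 ± 0.08 (limma adjusted p = 0.996). Of 7 heat shock genes, 1 rose (Hspa1b, 0.56, whose sequence is nearly that of Hspa1a) and 2 fell (Hspd1, -0.49, and Hsp90aa1, -0.35).

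**Figure D3:**
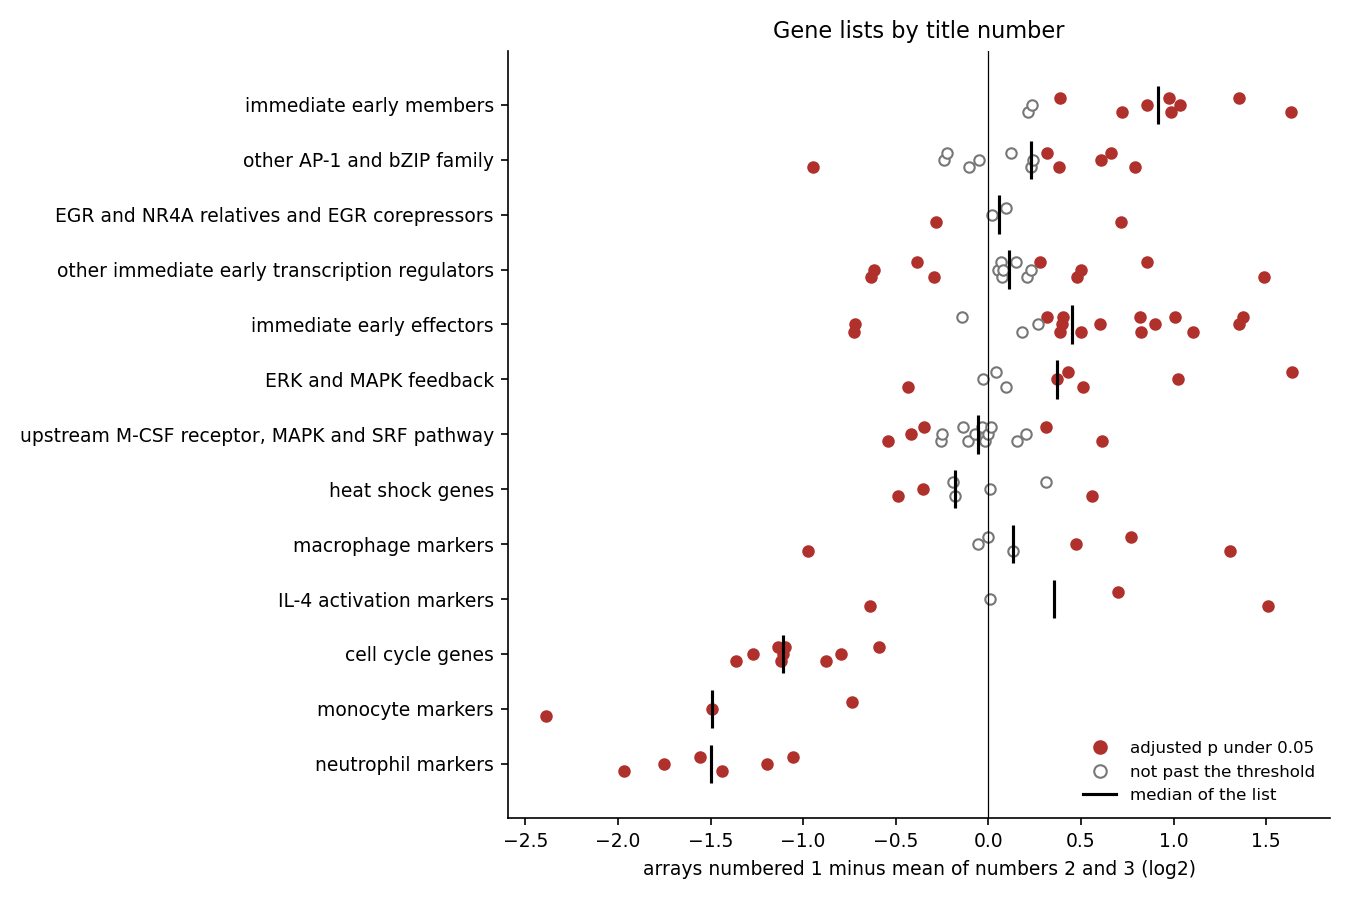
Difference between the arrays numbered 1 and the mean of those numbered 2 and 3 (log2, horizontal axis) for each tested gene of 13 lists. Filled points passed the threshold (limma adjusted p under 0.05) and bars mark each list's median. The immediate early members and effectors lie mostly to the right of 0, and the cell cycle, monocyte and neutrophil lists wholly to the left.

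Other cell types and proliferation moved with the title number too. Of all genes 11.0% were called higher and 22.1% lower on the arrays numbered 1. All 9 tested cell cycle genes, 3 of 3 tested monocyte markers and 6 of 6 tested neutrophil markers were lower on the arrays numbered 1, with medians of -1.11, -1.49 and -1.50. The mean level of the 7 measured neutrophil markers was 5.88 to 6.71 on the arrays numbered 1 and 7.46 to 7.93 on the others, without overlap. The mean of the 3 measured monocyte markers was 5.98 to 6.69 and 7.67 to 8.07. Of the macrophage markers 3 of 7 were higher (Cd14 by 1.30, Mertk by 0.77, Lyz2 by 0.47) and Fcgr1 was lower (-0.98). Of the IL-4 markers Chil3 (1.51) and Retnla (0.70) were higher, Arg1 was lower (-0.64) and Mrc1 differed by 0.01. Itgax (0.70) and H2-Aa (0.49), genes of dendritic cells that macrophages also express, were higher, as was the stromal gene Cxcl12 (0.65). The other tested stromal gene, Col1a1, differed by -0.06 and the mast cell gene Cpa3 by -0.01. The part of these cell types in the result was not tested, and in bulk RNA fewer cells of a type and less RNA per cell cannot be told apart.

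The genes most alike to each member were found as those whose profile, after subtraction of the gene's mean, had the lowest root mean square difference over the 9 arrays. None of the 30 genes so found was itself a member, and not all are named here. Sgk1 lay nearest to Fos at 0.10 (log2), against a median of 0.71 over all genes, followed by Tgm2 and Stra6l. Ptgs2, the inducible cyclooxygenase, lay nearest to Fosb at 0.13. Egr2 had Cd300c2 at 0.05, then Zfp36, whose protein speeds messenger decay, and Cd83, each at 0.08 or less. Fabp5 lay nearest to Egr1 (0.10), Vav2 to Junb (0.07), Npy to Nr4a1 (0.17), Ndufa1 to Ier2 (0.13), Rnaset2a to Jun (0.04), Cd151 to Atf3 (0.05) and Rab13 to Egr3 (0.09). The 9 points of every profile share the split by title number.

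Cells given LCN2 on day 7 were set against vehicle to ask whether the levels of these genes at harvest differed with late LCN2. All groups were harvested after 24 h with IL-4. A brief change soon after LCN2 was given was therefore not measured in any LCN2 comparison. Of the 10, 0 passed, and 0% of all genes were called (limma, 0 of 10042, 70 at an unadjusted p under 0.05). That fit of group means counts the spread between title numbers as error. With the title number as a block 0 genes were called, with 259 at an unadjusted p under 0.05 (limma). The median over the 10 was -0.04, against 0.00 over all genes. Egr3 differed most, from 7.46 ± 0.33 (SD, n = 3) with vehicle to 7.24 ± 0.31, by -0.22 ± 0.20 (SE, limma adjusted p = 1.000). Within the numbers 1, 2 and 3 its difference was -0.44, -0.43 and 0.19, and on the other 2 probe sets it was -0.44 and -0.39 (adjusted p = 1 each with every probe set tested). Ier2 differed by -0.21, with -0.20, -0.60 and 0.17 within the numbers. Fos (-0.05), Fosb (-0.01), Jun (-0.04), Egr2 (-0.02) and Atf3 (-0.01) lay near 0. The groups overlapped in all 10 genes and were apart in 3.17% of all genes.

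The same was asked of LCN2 present through differentiation, from day 0. Again 0 of 10 members and 0% of all genes were called (limma, 142 at an unadjusted p under 0.05), and the members' median was -0.08, against -0.01 over all genes. Egr1 differed most, from 6.64 ± 0.95 (SD, n = 3) with vehicle to 6.21 ± 1.07, by -0.43 ± 0.65 (SE, limma adjusted p = 0.999). Within the numbers 1, 2 and 3 it was lower with LCN2 each time, by -0.28, -0.04 and -0.99. With the title number as a block the error fell to 0.17 and the 95% interval ran from -0.82 to -0.05, with an unadjusted p of 0.0318 that did not survive adjustment over all genes (adjusted p = 0.960, limma). Junb differed by -0.30 ± 0.32, and within the numbers by -0.23, -0.16 and -0.52. Atf3 differed within them by -0.26, -0.20 and -0.01. For Fosb these values were 0.20, 0.03 and 0.04. The sign changed between the numbers for all other members, namely Fos, Jun, Egr2, Egr3, Ier2 and Nr4a1. For Fos the values were 0.19, -0.27 and -0.24, for Egr3 -0.38, 0.24 and 0.36, and for Nr4a1 0.45, -0.16 and -0.02. How many of all genes keep the same sign over the numbers was not counted. The groups overlapped in all 10 genes and were apart in 5.49% of all genes. The blocked fit called 0 genes, with 497 at an unadjusted p under 0.05.

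Egr2, which IL-4 raises, was at 11.31 ± 0.50 (SD, n = 3) with vehicle, 11.29 ± 0.32 with LCN2 from day 7 and 11.18 ± 0.67 with LCN2 from day 0. The differences from vehicle were -0.02 and -0.13, with blocked 95% intervals of -0.33 to 0.28 and -0.44 to 0.17. Fos differed from vehicle by -0.05 and -0.11, with blocked intervals of -0.35 to 0.26 and -0.41 to 0.20. For Jun the same intervals were -0.26 to 0.18 and -0.23 to 0.21. Both comparisons use the same vehicle arrays.

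The comparison of the 2 LCN2 groups sets LCN2 from day 0 against LCN2 from day 7, so start, length and, since a dose is not stated, possibly dose differ together. It called 0 of 10 members and 0% of all genes (limma, 177 at an unadjusted p under 0.05). The blocked fit called 0 genes, with 539 at an unadjusted p under 0.05. Egr1 was again the member that differed most, by -0.51 ± 0.65 (SE, limma adjusted p = 1.000), with -0.31, -0.30 and -0.91 within the numbers. The blocked interval ran from -0.89 to -0.12 (unadjusted p = 0.0162, adjusted p = 0.898). Egr3 differed by 0.30 ± 0.20 and was the 1 member whose groups did not overlap, higher with LCN2 from day 0, against 2.07% of all genes. This rested on 7.47 (LCN2 from day 0, number 1) against 7.43 (LCN2 from day 7, number 3) on the kept probe set. On the other 2 probe sets of Egr3 the difference was 0.35 and 0.19, and the groups overlapped on both. Of the other immediate early, feedback, upstream and heat shock lists, 0 genes passed in any LCN2 comparison. Their largest differences were Bcl3 at -0.33 in LCN2 from day 7 minus vehicle, Batf at -0.34 in LCN2 from day 0 minus vehicle, and Batf2 at 0.34 between the LCN2 groups.

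**Figure D4:**
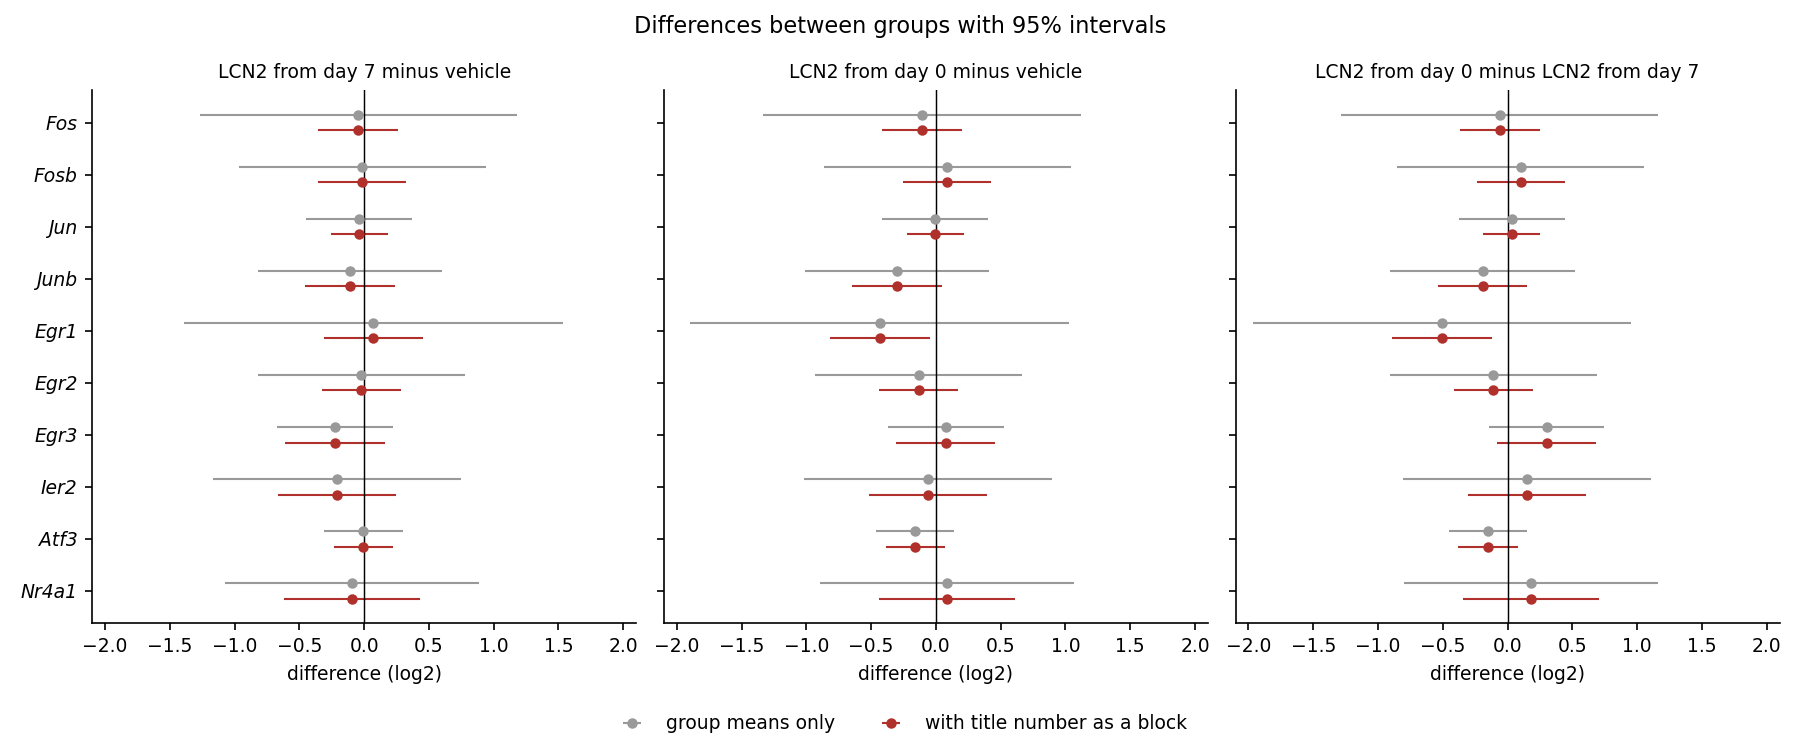
Differences between the groups (log2, horizontal axes) for the 10 genes in the 3 comparisons, with 95% intervals from limma. Grey points and bars come from the fit of group means and red ones from the fit with the title number as a block. Every grey interval crosses 0. Of the red ones only those of Egr1 in the 2 comparisons with LCN2 from day 0 do not, at adjusted p = 0.960 and 0.898.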

How the data were processed

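RNA from 9 samples was amplified, labelled with biotin and measured on 9 expression arrays, 3 per group. The authors deposited log2 expression levels of 22203 probe sets, for which the submitters' processing notes name oligo and RMA without versions. RMA corrects background, makes the distributions of the arrays alike and summarises probes, so levels are relative within the series. No further scaling was done. A single gene symbol was listed for 19572 probe sets, several for 0 and none for 2631, and all 19572 were matched by Entrez identifier to RefSeq (GRCm38.p6). For the 55 genes with several probe sets the one with the highest mean was kept. A gene entered the tests if its mean reached 5.66, the median of the means of all probe sets, as 10042 did. Precision is limited by the number of arrays.

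Tests used limma 3.58.1 (R 4.3.3, eBayes without trend, 1 mean per group, all 9 arrays), with Benjamini-Hochberg adjustment over all genes tested and a threshold of 0.05. Title numbers were compared in a fit with group and number. The fit was tested on simulated data, in which only planted genes differed by title number. That test therefore does not cover the fit of group means under the split by title number seen on the real arrays. Deviations from the group mean of the 9 same-number pairs of arrays correlated across genes at 0.16 to 0.82, each over 0.1, so the numbers from the titles were taken to pair the arrays. Pairs of an array numbered 2 with one numbered 3 also correlated, at 0.20 to 0.69, so the check sets number 1 apart but not 2 from 3. The fit with the number as a block is an alternative. Other alternatives were the dim filter, a trend, a common median, the probe set rule, the 6 arrays of a comparison, arrays numbered 2 and 3 only, and leaving out each array. The members, lists and the title-number contrast were chosen with earlier results of these data known. Named were all members and, from each list other than the markers, the 3 largest differences by title number. For each LCN2 comparison the largest difference over those lists together was named. Of the 3 genes most alike to each member, all were named for Fos and Egr2 and only the nearest for the others. Listed genes with no named probe set were not analysed here.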

Additional observations from a re-analysis of the deposited data

How the results depend on the processing

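In the 3 LCN2 comparisons, 0 members and 0 genes passed in the fit of group means, with the replicate block (title number in the model), or in any other alternative run (27 settings each, the lowest adjusted p of a member 0.586). Their signs are not stable: of 266 member values per comparison, 40, 32 and 30 changed sign, none passing on either side, and the median over the members ran from -0.36 to 0.21 when 1 array was left out of the fit of group means. The count by title number was 3333, and 1777 to 3612 when 1 array was left out, with 1777 without vehicle replicate 1 and 1923 without LCN2 day 0 replicate 1. The members called higher were 6 without LCN2 day 0 replicate 1, 7 without vehicle replicate 1 and 8 or 9 in the other alternatives with all 10 tested. Leaving out probe sets below the 60th percentile removed 4 members and left 4 of 6 called, against 12.5% of all genes. The comparisons against arrays numbered 2 alone or 3 alone (8 called in each) and the test of every probe set were chosen after seeing the data. Array data carry no counts, and with 3 arrays per group small changes could not be told from the spread.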
